A study of Microtus ochrogaster with 2 samples.

Results

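Genes for 10 enzymes that write or erase methyl groups on lysine 4 of histone H3 (H3K4) were examined for H3K4me1, the single methyl group on that lysine. They were chosen by function, with earlier results of these data known, and their loci were the gene bodies with 5 kb on each side. The 10 were taken from 20077 protein-coding genes of assembly MicOch1.0, and 8 of them had a usable position on a named sequence. Kmt2c and Kdm5a are missing from the counts because the gene table gives no sequence for their positions. The animals were male prairie voles (Microtus ochrogaster), 30 to 40 days old, and the tissue was the retrosplenial cortex, which lies on the midline at the back of the cerebral hemispheres and serves spatial memory. The deposited peak list compares 1 H3K4me1 ChIP library with 1 input library made without antibody. The labels give no strain, genotype or treatment for either library. The study names 8 males and does not say how they were spread over the libraries. Once duplicates had been removed, 37430265 ChIP fragments and 47554684 input fragments remained. There was no replicate of either library, so no difference here has a replicate check and no p-value is given.

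H3K4 methylation is set by large complexes built around SET-domain enzymes and removed by demethylases of separate families. In mammals Kmt2c and Kmt2d place most of the single methyl groups found at enhancers, Kmt2a and Kmt2b act at promoters and selected target genes, and Setd1a belongs to the complexes that place the trimethyl mark at active promoters. Kmt2e carries a SET domain and is counted here among the writers, although its own methylating activity is doubtful. The flavin-dependent Kdm1a and Kdm1b remove single and double methyl groups, and the oxygen-dependent Kdm5a and Kdm5b remove the higher states. In people, loss of 1 copy of several of these genes causes disorders of brain development. The mark itself is found at enhancers and beside active promoters, and the question asked was whether the enzymes' own genes carry it in this cortical area.

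Of the 8 placed members, 7 carried at least 1 peak and Kmt2d carried none. Among all 13975 placed protein-coding genes, 46.0% carried one. Writers had a peak at 4 of 5 loci and erasers at 3 of 3. The members hold 10 peaks out of 36238 in the list, and 6 of the 7 marked loci hold just 1. In total 6848 bp of the 8 loci lay under peaks.

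Long genes have more room for peaks, and the member loci ran from 31537 bp at Kmt2b to 92447 bp at Kmt2a. The share of placed genes with a peak was 24.3% for loci under 20 kb, 45.2% for 20 to 50 kb, 66.3% for 50 to 100 kb, 76.3% for 100 to 200 kb and 91.0% for 200 kb and over. Kmt2b, Setd1a and Kdm1b lie in the band of 20 to 50 kb and all carried a peak. The other 5 lie in the band of 50 to 100 kb, where 4 carried one. Set against shares of 45.2% and 66.3% in their own bands, counts this small are no evidence that the enzymes' genes stand apart from genes of like length. All 7 marked members kept a peak with the gene body alone, where 38.1% of all placed genes had one. That last share is not given by length band.

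The level of coverage also varied widely among the members. The percent of locus under peaks was 2.93% at Kdm1b, 2.86% at Kmt2e, 2.25% at Kmt2a, 1.33% at Kmt2b, 0.904% at Setd1a, 0.601% at Kdm5b, 0.509% at Kdm1a and 0 at Kmt2d. The median over the 8 was 1.12%, against 0 over all placed genes, more than 50% of which had no peak. In the band of 50 to 100 kb all genes had a median of 0.715% and an upper quartile of 1.99%, so Kmt2e and Kmt2a lay above that quartile and Kdm5b, Kdm1a and Kmt2d below the median. In the band of 20 to 50 kb the median was 0 and the upper quartile 1.97%, and there Kdm1b alone of the members lay above the quartile. The placed writers had a median of 1.33% and the placed erasers 0.601%, with ranges that overlap, and neither group holds more than 5 genes.

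**Figure D1:**
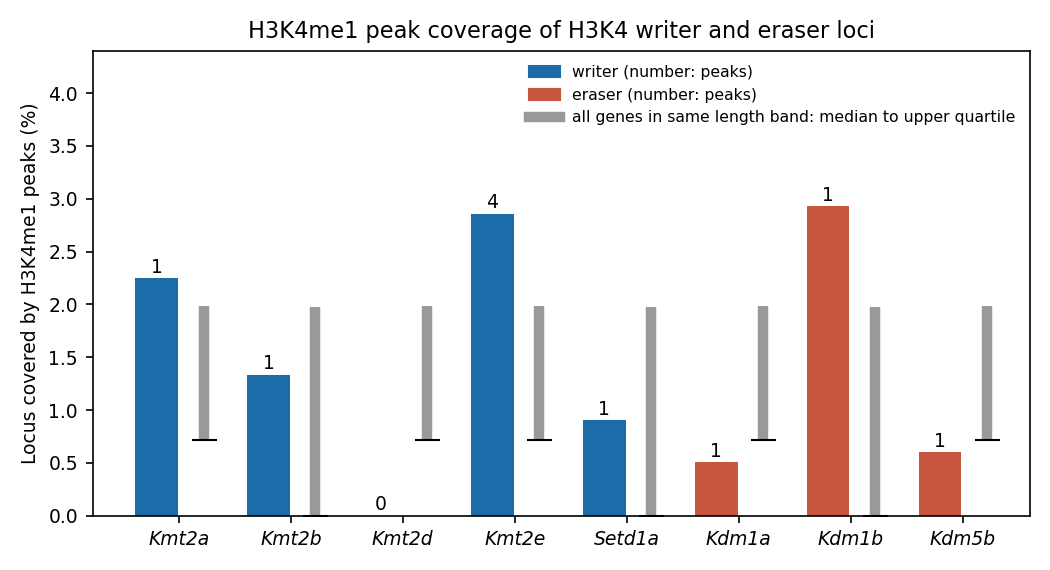
Share of each member locus under H3K4me1 peaks (percent, 5 kb flanks included), with writers in blue and erasers in red and the number of peaks above each bar. Grey bars run from the median (black line) to the upper quartile of all placed genes in the same band of locus length. Kmt2a, Kmt2e and Kdm1b rise above their grey bars, while Kmt2d has no peak.

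Among the writers, Kmt2a, known as the founding MLL gene of mixed lineage leukaemia and needed in mouse neurons for memory, carried 1 wide peak. It ran over 2081 bp inside the gene (chr5:38793312-38795392), with its midpoint 6.50 kb from the nearer gene end, 32 ChIP fragments at its summit and a 3.04-fold enrichment. Pileup and fold are the authors' own values for each peak, the fold being the ChIP pileup over the background that the caller set from the input. In width this peak held rank 219 of 36238 and exceeded 99.4% of the list. In fold it exceeded 69.7% of the list, so it ranked higher in width than in fold. Its 32 fragments were above the list median of 22, over a background 1.58 times the lowest in the list. No other peak touched the Kmt2a locus, and the nearest ones beyond it stood 26.8 kb from one gene end and 39.0 kb from the other.

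Kmt2b, the closest relative of Kmt2a, carried 1 peak of 421 bp (LG4:22000755-22001175) with 22 fragments and a 3.18-fold enrichment. Its midpoint lay 1.92 kb inside the gene. It exceeded 47.7% of the list in width and 74.6% in fold. That stretch of linkage group 4 also lies within the long gene model LOC113457658, which covers the whole Kmt2b locus, so the peak is counted for both genes.

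Setd1a carried 1 narrow peak of 312 bp (chr8:20559964-20560275), 3.15 kb inside the gene, with 20 fragments and a 2.61-fold enrichment. It was among the weaker entries, above 28.7% of the list in fold and 20.3% in width. A further peak of 336 bp began just beyond the 5 kb flank (chr8:20551087-20551422), with its midpoint in the neighbouring calcium channel gene Orai3 and a 3.24-fold enrichment, higher than the peak within Setd1a.

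Kmt2d, the enhancer monomethyltransferase mutated in most cases of Kabuki syndrome, had no peak in its locus of 50.1 kb. With 50 kb on each side it still had none, whereas 75.0% of all placed genes had at least 1. In its own length band 16.8% of genes were likewise empty over that distance. The nearest peaks stood 51.9 kb from one gene end and 94.7 kb from the other, which leaves 187 kb of chromosome 15 without a listed peak. The list holds only sites past the caller's q cutoff of 0.05. Where the local background was lowest, at 6.23 fragments, the weakest listed peak had 16 fragments and a 2.35-fold enrichment. Over higher backgrounds the limit differs, and the background at Kmt2d is not given by the list. A site at Kmt2d that missed the cutoff was not detectable at this depth, and absence from the list does not show that the mark is lacking.

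Kmt2e had the most peaks of the members. Its locus held 4, a count reached by 16.2% of genes in its length band. The first, of 434 bp, lay outside the gene (chr26:14991846-14992279), 3.90 kb from its end, with 28 fragments and a 2.49-fold enrichment. The other 3 were inside the gene, with midpoints 5.67, 12.1 and 18.4 kb from the same end. The one at 12.1 kb (chr26:15007814-15008276) had 35 fragments and a 3.58-fold enrichment, the highest fold at any member and above 90.9% of the list. The one at 5.67 kb (chr26:15001153-15002110) was 958 bp wide but had only a 2.13-fold enrichment over a background 2.02 times the lowest in the list. The one at 18.4 kb (chr26:15014223-15014533) had 23 fragments and a 3.15-fold enrichment.

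These 4 peaks were the inner part of a longer run. With 50 kb on each side of the gene Kmt2e had 11 peaks, a count that 3.32% of genes in its band reached. The run spanned 37.1 kb (chr26:14977390-15014533) and 7188 bp of it, or 19.4%, lay under peaks. Of the 11, 8 lay outside the gene on 1 side and 3 inside it. Fragments at the summit ran between 23 and 35 and fold between 2.13 and 3.58, and the widest peak, 1951 bp (chr26:14977390-14979340), was the one farthest out, with a 3.49-fold enrichment. The widest gap between neighbouring peaks was 8.87 kb. Beyond the last peak the remaining 47.2 kb of the gene held none. The next protein-coding gene on the side of the run, Lhfpl3, was 90.3 kb from Kmt2e, and on the other side Srpk2, a kinase of splicing factors, was 2.40 kb away. Strand was not in the gene table used, so whether the run lies before the start or after the stop of Kmt2e was not determined.

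**Figure D2:**
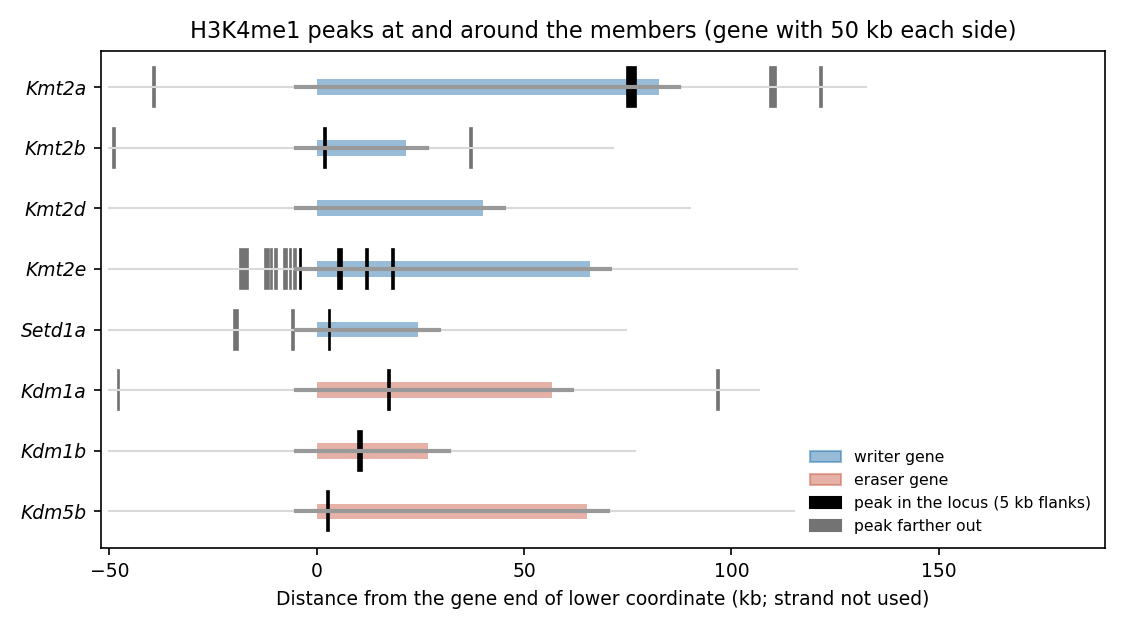
H3K4me1 peaks along the 8 placed members, in kb from the gene end of lower coordinate, with genes as coloured bars (writers blue, erasers red), 5 kb flanks as a dark line and 50 kb flanks as a pale line. Black marks are peaks in the locus and grey marks peaks farther out. Kmt2e shows a run of 11 peaks over 1 gene end, while Kmt2d has none within 50 kb.

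The erasers each carried 1 peak inside the gene. Kdm1a, also called LSD1, the catalytic subunit of the CoREST repressor complex, had a peak of 339 bp (chr10:48239067-48239405), 17.4 kb from the nearer gene end, with 22 fragments. Its 2.38-fold enrichment exceeded only 12.4% of the list. Kdm1b, or LSD2, known in the mouse for setting up maternal imprints in the oocyte, had a wider peak of 1077 bp (chr16:50708461-50709537), 10.4 kb inside the gene, with 24 fragments and a 3.09-fold enrichment. In width it exceeded 93.3% of the list. It was also the sole peak within 50 kb of Kdm1b.

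Kdm5b, a demethylase of the trimethyl state, had 1 peak of 452 bp (chr6:25115366-25115817), 2.68 kb inside the gene, with 21 fragments and a 3.04-fold enrichment. In width and fold it was near the middle of the list, above 53.4% and 65.2% of peaks. Like Kdm1b it had no other peak within 50 kb, whereas the median gene of its band had 3 over that distance. The rest of its gene body, 65163 bp long, held no listed peak.

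The medians of the 10 member peaks lay close to those of the whole list. Their median width was 443 bp, against 433 bp for all listed peaks, their median pileup 23.5 against 22 fragments, and their median fold 3.04 against 2.84. Of the 10, 6 lay above the median of the list in width and 6 in fold. Local background at the member peaks ran between 1 and 2.02 times the lowest in the list, so none stood on a strongly raised background. The lowest value was shared by 34.5% of all listed peaks and by 2 member peaks, those at Kmt2b and Kdm5b. At that shared value the fold follows from the pileup alone, so many peaks tie in fold. Of the 10, 2 were 1 kb or wider, those at Kmt2a and Kdm1b, and 8.28% of all listed peaks were. The 9 peaks inside members lay 1.92 to 18.4 kb from the nearer gene end, with a median of 6.50 kb, and the 6422 pairs of a gene and a peak inside it among loci of 20 to 100 kb had a median of 6.99 kb.

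**Figure D3:**
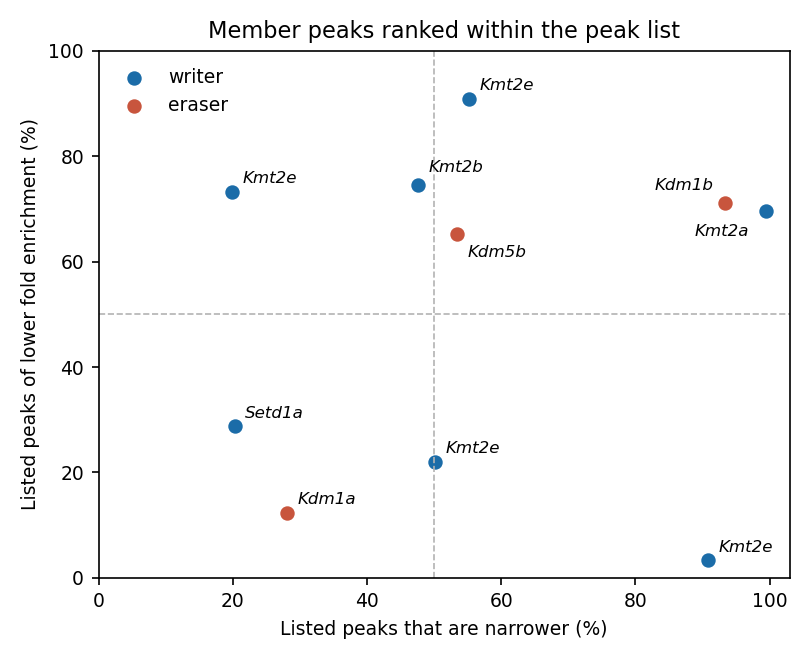
Each of the 10 member peaks by the percent of all listed peaks that are narrower (horizontal) and of lower fold enrichment (vertical), with writers in blue and erasers in red and dashed lines at the list's middle. The Kmt2a and Kdm1b peaks lie far to the right, and the 4 Kmt2e peaks spread over most of the vertical range.

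The counts were also taken with stronger peaks alone. With the 50% of all peaks that had the higher −log10 q, and so the lower q, 5 of the 8 members kept a peak. The share over all placed genes was 33.1%, and Setd1a and Kdm1a had none. Shares under these limits are not given by length band. Of the 13975 placed genes, 5005 have loci under 20 kb, shorter than any member locus. Kmt2e then had 2 peaks over 1.02% of its locus, behind Kdm1b at 2.93%, Kmt2a at 2.25% and Kmt2b at 1.33%. With the 25% of highest fold, 2 of the 8 had one, Kmt2b and Kmt2e, against 22.0% of all placed genes. The Kmt2b peak stands exactly at that limit, and Kmt2e had 1 peak over 0.611%.

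The wider machinery of H3K4 methylation was described by 5 lists of the enzymes' relatives, partners and readers. In these, 25 of 37 placed genes carried a peak, beside 46.0% of all placed genes, and locus lengths differ between lists. With enzymes for other histone lysines added, 39 of 54 placed genes in 7 lists carried one. Among other H3K4 methyltransferases, 3 of 4 placed genes did, with a median coverage of 0.749%. Setd7, which adds a single methyl group to H3K4 and to many other proteins, had 2 peaks over 2.21% of its locus. Setd1b, the partner paralogue of Setd1a, had 1 over 0.931% and Smyd2 1 over 0.567%, while Smyd3 had none in a locus of 577552 bp, a length at which 91.0% of genes have a peak. The 1 placed further demethylase, the X-linked Kdm5c, had none, and on the X just 6.69% of placed genes had one.

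Subunits of the methyltransferase complexes carried a peak at 6 of 11 placed loci, beside 46.0% of all placed genes, with a median coverage of 0.432%. Psip1, a chromatin tether of the Kmt2a complex, had 3 peaks over 2.18%, Bod1 had 1 over 2.08%, and the core subunit Rbbp5 had 1 over 2.04%. The core subunit Ash2l, the CpG-binding Cxxc1 and the X-linked Kdm6a, a demethylase of another lysine that sits in the Kmt2c and Kmt2d complexes, had none. Their loci ran from 12160 to 138351 bp. With the gene body alone the count was 4 of 11, beside 38.1% of all placed genes. With 50 kb flanks the count was 10 of 11, and the share over all placed genes was then 75.0%.

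Partners of Kdm1a carried a peak at 9 of 10 placed loci, beside 46.0% of all placed genes, with a median coverage of 1.37%. Their loci ran from 14542 bp at Hmg20b to 350677 bp at Gse1. The share of genes with a peak is 24.3% under 20 kb and 91.0% at 200 kb and over. Rcor2, a CoREST scaffold, had 3 peaks over 14.8% of its short locus, and 99.3% of placed genes under 20 kb had less. Gse1, a CoREST-associated protein, had 37 peaks over 6.73%. The X-linked Zmym3 had none. In percent of locus Kdm1a itself, at 0.509%, was covered less than any of the 9 marked partners, but percent also depends on locus length. In bases under peaks Hmg20b alone of the marked partners had fewer, 326 bp in a locus of 14542 bp. Kdm1a had 339 bp in 66635 bp.

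Readers of H3K4 methylation carried a peak at 7 of 11 placed loci, beside 46.0% of all placed genes, with a median of 2.05%. Their loci ran from 14116 bp at Phf23 to 162724 bp at Taf3. The PHD-finger genes Phf23, Phf13 and Dido1 led with 6.71%, 4.37% and 4.34%, and Ing2, Ing5 and Phf2 had none. At Phf23 and Phf13 the only peak had its midpoint in a flank.

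Enzymes for other histone lysines were described in the same way, as a list of methyltransferases and a list of demethylases. The placed loci of both lists lie between 20 and 200 kb. In the length bands of that range 45.2%, 66.3% and 76.3% of genes have a peak, beside 46.0% of all placed genes. Methyltransferases of other lysines carried a peak at 8 of 10 placed loci, with a median of 1.26%. Kmt5a, which methylates histone H4, had 4 peaks over 12.3%, Dot1l, which acts on lysine 79, had 7 over 7.77%, and the lysine 36 enzyme Nsd1 had 5 over 2.51%, while Setdb1 and Suv39h1 had none. Demethylases of other lysines carried a peak at 6 of 7, with a median of 1.06%. Jmjd1c had 21 peaks over 8.92%, Kdm3b 3 over 3.81% and Kdm2b 4 over 1.30%, while Kdm8 had none. No member of the H3K4 set reached the coverage of Rcor2, Kmt5a, Jmjd1c, Dot1l or Gse1. These were the highest of 54 placed genes in the 7 lists, so the contrast rests on that choice. Rcor2, Jmjd1c and Gse1 also lie in length bands that hold no member.

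**Figure D4:**
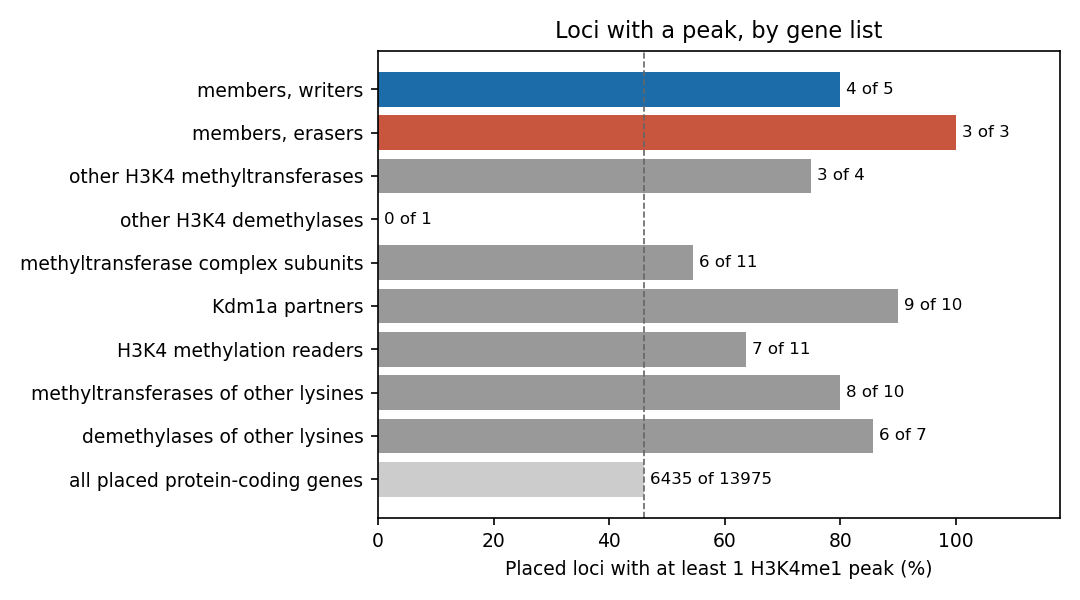
Percent of placed loci with at least 1 H3K4me1 peak, for the member writers (blue) and erasers (red), 7 further lists (grey) and all placed protein-coding genes (pale bar and dashed line, 46.0%), with counts beside the bars. Every list with more than 1 placed gene lies above the dashed line, and locus lengths differ between lists.

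As a check of the tissue, excitatory cortical neuron genes carried a peak at 5 of 6 placed loci, led by Mef2c with 32 peaks, and inhibitory neuron genes at 0 of 6, beside 46.0% of all placed genes. With the gene body alone the excitatory count was 3 of 6, since the peaks at Nrgn and Tbr1 lay in the flanks. In both lists 3 of the 6 loci are under 20 kb, a length at which 24.3% of genes have a peak. Astrocyte genes carried one at 1 of 2 placed loci, oligodendrocyte genes at 2 of 4, microglia genes at 2 of 4, and hepatocyte genes, of a tissue not sampled, at 3 of 5. A peak in a locus was thus also found at genes of a tissue that was not taken. The peaks come from all cells of the dissected tissue, so which cells carry the mark at the members was not tested.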

How the data were processed

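Per the labels, chromatin of the retrosplenial cortex was immunoprecipitated for H3K4me1 and sequenced beside an input library. Peaks were called with MACS 2.0.10.20131216 on paired-end fragments with a q cutoff of 0.05 and 1 duplicate kept per position, per the file headers. The submitters' processing notes list BWA 0.7.12, while header paths name Stampy, so the aligner is not settled. Pileup, the signal deposited for each peak, counts ChIP fragments over the summit. Fold enrichment, as deposited, is a ratio of pileup to local background, each with 1 added, and local backgrounds were computed back from it. The −log10 p was deposited too and went unused, and the deposited −log10 q served only to filter peaks.

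For the peaks no genome build is given in the sources used here. Gene positions came from MicOch1.0. On each of the 8 member sequences, more peaks had their midpoint 1 to 2.5 kb off a gene end as deposited than after any of 10 shifts of 10 to 200 kb (901 in all as deposited). On chromosome 26, which holds Kmt2e, the counts were small, 12 as deposited against 2 to 9 after shifts. Left out were genes on unplaced sequences, on chromosome 14 and in the first 20 Mb of chromosome 6. A peak counted when it shared at least 1 base with a locus, which is the gene with 5 kb on each side. The calculation was checked on simulated peaks. Tools were Python 3.11.15, pandas 2.3.3 and numpy 2.4.6. Each result had 8 alternatives, with other flanks, peak sets and overlap rules. From each further list the 3 genes of highest coverage and up to 3 without a peak, in alphabetical order, were named, except 1 gene that is not reported here. Members and lists were chosen with earlier results of these data known.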

Additional observations from a re-analysis of the deposited data

Results flagged for a closer look

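Peaks on unplaced sequences, 7851 in all, entered no comparison. One of them lies where the gene table puts Kdm5a, which it lists without a sequence name. Of the 552 unplaced sequences in the peak list, 1 (UNK1) has peaks beyond that position, and on its outer part, holding 215 genes, 45 peaks stood 1 to 2.5 kb off a gene end as deposited, against 11 to 22 after shifts. Read on UNK1, the Kdm5a locus would hold 1 peak (UNK1:34656989-34657647) of 659 bp with 30 fragments and a 3.66-fold enrichment, 1.86 kb inside the gene and covering 0.653% of the locus. This placement was inferred after the data were seen, and the peak is not counted among the members' 10.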

How the results depend on the processing

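Of 264 recomputed values 212 stayed within 1.5 times the value reported. That total includes values that could not move, such as the 0 peaks at Kmt2d under limits on peak strength. Limits on peak strength moved the most. With the 25% of peaks of highest fold, 9215 in number, 2 members, 2 writers and 0 erasers had a peak and the median member coverage was 0. Under the same limit the counts were 1 for other H3K4 methyltransferases, 0 for complex subunits, 5 for Kdm1a partners and 2 for demethylases of other lysines. With the 50% of higher −log10 q, 18176 peaks, they were 1 for other H3K4 methyltransferases and 3 for complex subunits. Both sets hold fewer peaks, which by itself lowers counts. With 50 kb flanks complex subunits had 10. The count of 7 members was the same with the gene body alone, with 20 and 50 kb flanks, by midpoint, without the 729 peaks of raised background (over 5 times the lowest) and without peaks lying in another gene only. The background rule could not change it, since no member peak exceeded 2.02 times the lowest. Nor could the midpoint and other-gene rules, since every marked member had a peak with its midpoint inside the gene. The share over all genes meanwhile ran from 38.1% with the gene body to 59.3% with 20 kb and 75.0% with 50 kb flanks, so an unchanged count at wide flanks says little about the members. With 20 kb flanks Kmt2e had 11 peaks over 6.79% of its locus and Setd1a 3 over 2.48%, while Kdm1b went down to 1.61%. With 50 kb flanks Kdm1b had 0.849%, Kdm5b 0.274% and Kmt2e 4.34%. The order of coverage among members thus depends on the flank and, as at Kmt2e, on the limit on peak strength. No paired analysis was possible because each group has 1 library.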
